A study of Mus musculus with 16 samples.

Results

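A set of 8 genes that carry a death signal to the caspases was followed in mouse alveolar rhabdomyosarcoma (aRMS) cells with and without knockdown of Pax3:Foxo1a. They were the receptors Fas and Tnfrsf10b, the adaptor Fadd, the initiator caspase Casp8 and its regulator Cflar, the apoptosome scaffold Apaf1, the caspase Casp9 that it activates, and the caspase inhibitor Xiap. Members were chosen by gene symbol, as all probes that the platform annotation gives to 1 of these 8 symbols, which made 24 of the 25697 probes on the array and 8 of 16593 named genes. Of the 8 genes, 7 were detected and tested, and Cflar was not. The cells were an aRMS tumor culture of the mouse model with Myf6Cre, a conditional Pax3:Foxo1a knock-in allele and conditional p53, in which Cre recombination is driven from Myf6, a gene of the muscle lineage, and eYFP is the second cistron on the mRNA of the fusion gene. The knockdown cells had received 10 nM of an siRNA against eYFP (siYFP, the knockdown) and the others a control siRNA, both with 0.2% Lipofectamine2000 in DMEM with 10% FBS. After Hoechst33342 staining they were sorted by DNA content into 2N (G1/G0), 3N (S) and 4N (G2/M) cells. The 6 groups were knockdown and control cells at 2N (3 arrays each), at 3N (2 arrays each) and at 4N (3 arrays each). All 6 groups share the tumor genotype. The knockdown rests on 1 siRNA sequence, so effects of that sequence other than the loss of Pax3:Foxo1a cannot be told apart from it. The sources used here do not give the dose of the control siRNA, the culture that was arrayed or the hours between transfection and sorting.

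Caspases are proteases that lie inactive in the cell and are switched on in a cascade. On the extrinsic route, ligand-bound Fas or Tnfrsf10b, the mouse receptor for TRAIL, recruits Fadd, and Fadd brings Casp8 molecules together so that they activate each other, unless Cflar, which resembles Casp8 but lacks its protease activity, takes their place. On the intrinsic route, cytochrome c from mitochondria binds Apaf1, whose oligomer, the apoptosome, activates Casp9, while Xiap binds and blocks Casp9. Fas, Tnfrsf10b and Apaf1 are well known p53 targets in cells that keep p53.

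The sequences upstream of 3 genes are shown because these genes carried the clearest differences: Fas and Apaf1 between knockdown and control, and Casp9 between DNA contents. RefSeq promoter sequences on build GRCm38.p6 were at hand for 7 of the 8 genes. Each line gives the 250 bases before the annotated start, 5′ to 3′ on the gene's strand. For Fas this is the start of the promoter record, since its gene record begins at 34290647, inside the window. Capitals mark matches, on both strands, to the AP-1 motif TGANTCA, the paired domain core GTCACGC and the GC box GGGCGG.
Fas, chr19:34290409-34290658, plus strand: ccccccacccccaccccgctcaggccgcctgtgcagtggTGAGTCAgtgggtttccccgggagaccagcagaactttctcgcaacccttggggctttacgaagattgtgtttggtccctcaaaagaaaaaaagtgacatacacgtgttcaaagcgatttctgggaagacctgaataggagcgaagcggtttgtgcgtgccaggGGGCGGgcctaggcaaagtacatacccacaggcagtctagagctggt
Apaf1, chr10:91082744-91082993, minus strand: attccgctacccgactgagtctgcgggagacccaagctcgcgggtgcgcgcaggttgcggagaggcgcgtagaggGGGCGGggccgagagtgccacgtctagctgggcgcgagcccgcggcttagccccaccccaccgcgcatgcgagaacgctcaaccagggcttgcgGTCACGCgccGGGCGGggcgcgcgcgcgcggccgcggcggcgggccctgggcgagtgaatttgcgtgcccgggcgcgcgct
Casp9, chr4:141793362-141793611, plus strand: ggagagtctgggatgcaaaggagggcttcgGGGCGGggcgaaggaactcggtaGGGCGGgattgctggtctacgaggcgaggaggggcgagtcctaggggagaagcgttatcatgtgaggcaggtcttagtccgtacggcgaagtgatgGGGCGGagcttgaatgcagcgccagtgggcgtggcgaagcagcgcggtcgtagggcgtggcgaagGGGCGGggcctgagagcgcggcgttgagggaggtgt
Fas held the AP-1 motif 211 bases before its start, and it was the only one of 9 member promoters to do so (some genes have more than 1 promoter), against 6.75% of 32851 promoters. Apaf1 held the paired domain core 81 bases before its start, again alone among the 9, against 1.78% of promoters. Casp9 held 4 GC boxes, and 6 of the 9 member promoters held at least 1, against 32.7% of promoters. The forkhead core TGTTTAC was in none of the 9 (3.17% of all promoters), and of the E2F forms GCGGGAAA and GCGCGAAA only the first was found, in Fadd (0.895% and 0.256% of all promoters). The GC box and the paired domain core do not overlap in these 3 windows. A match describes these letters only, and binding was not measured.

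Values are log2 signals after background correction and quantile normalization, and a probe was called detected on an array where its detection p was under 0.05. Detection began at 5.62 to 5.81 on this scale, depending on the array. Between 12535 and 13135 probes were detected per array, and precision is limited by having 2 or 3 arrays a group. Foxo1, whose probe may read native Foxo1 as well as the fusion transcript, was lower on every knockdown array (8.23 to 9.04) than on every control array (9.24 to 9.62), and it fell by 0.70 (SE 0.14, adjusted p = 0.00503) in 4N cells, by 0.85 (SE 0.14, adjusted p = 0.00142) in 2N cells and by 0.89 (SE 0.17, adjusted p = 0.00283) in 3N cells. The sort was visible in 11 tested G2/M phase genes, of which 10 rose in 4N against 2N cells with either siRNA. In 3N against 2N cells 9 of the 11 rose with either siRNA. Their median change was 1.73 with knockdown and 1.99 with the control siRNA, against 2.28 and 2.32 in 4N cells. All genes called were 6.10% and 4.81% at 3N, and 5.34% and 4.80% at 4N. Of 10 tested G1/S phase genes, 3 fell in 3N knockdown and 6 in 3N control cells. The 3N cells, labelled S, thus shared much of the G2/M signal of 4N cells. After knockdown, 2 of the 11 G2/M genes were lower in 4N, 5 in 2N and 2 in 3N cells, and none was higher. Of the 10 G1/S genes, 3 were lower in 2N cells, 1 was higher in 3N cells and none was called in 4N cells. The summed G2/M signal in 4N cells was 46842.7 to 49951.2 after knockdown and 52056.7 to 54940.1 in control cells, without overlap. The part of these phase genes in the knockdown comparisons was not tested. Of 9 myogenic markers with a probe, Myog, Des and Chrna1 were detected on all 16 arrays, whereas Myod1 and Pax3 were detected on none. All 7 endothelial markers and 6 of 9 immune markers with a probe were detected on no array. Of 2 immune markers that could be tested, 1 was higher after knockdown in 4N cells, 0 in 2N cells and 1 in 3N cells, and the summed immune signal in 4N cells was 344.5 to 351.6 after knockdown and 319.8 to 349.3 in control cells, with overlap. The immune sums also overlapped in 2N cells (312.9 to 387.7 after knockdown and 312.1 to 336 in control cells). They did not overlap in 3N cells (329.2 to 337.3 and 297.3 to 301.7). Epithelial markers, among them the keratins Krt8, Krt18 and Krt14 on all 16 arrays, were also measured: of 4 tested, 2 were higher after knockdown in 4N cells, 2 in 2N cells and 3 in 3N cells, and their summed signal in 4N cells was 16077.3 to 19070.6 after knockdown and 12287.4 to 14671.4 in control cells. In 2N cells the epithelial sums overlapped (12923.8 to 15751 after knockdown and 10965.6 to 14669.4 in control cells), and in 3N cells they did not (16344.9 to 17464.3 and 10654.2 to 12006.2). Over all genes tested, knockdown called 19.1% in 4N, 21.4% in 2N and 12.9% in 3N cells. With so few immune and epithelial markers tested, their counts are a description. The part of these markers in the results below was not tested.

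The first comparison asked which of the 8 genes responded to knockdown at each DNA content. Fas and Apaf1 rose at all 3 DNA contents, Tnfrsf10b fell in 4N cells, and no other member passed the threshold of an adjusted p under 0.05 (limma, Benjamini-Hochberg over all genes tested). In 4N cells 3 of 7 members were called, against 19.1% of 9146 genes. In 2N cells 2 of 7 were called, against 21.4% of 9146 genes. In 3N cells 2 of 7 were called, against 12.9% of 9306 genes. With 7 members tested, these counts are a description. With the experiment number as a block the 3N comparison called 915 genes higher and 937 lower in place of 601 and 602, and the same 2 members were called. These are bulk samples, in which more cells that express a gene and more RNA per cell cannot be told apart.

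**Figure D1:**
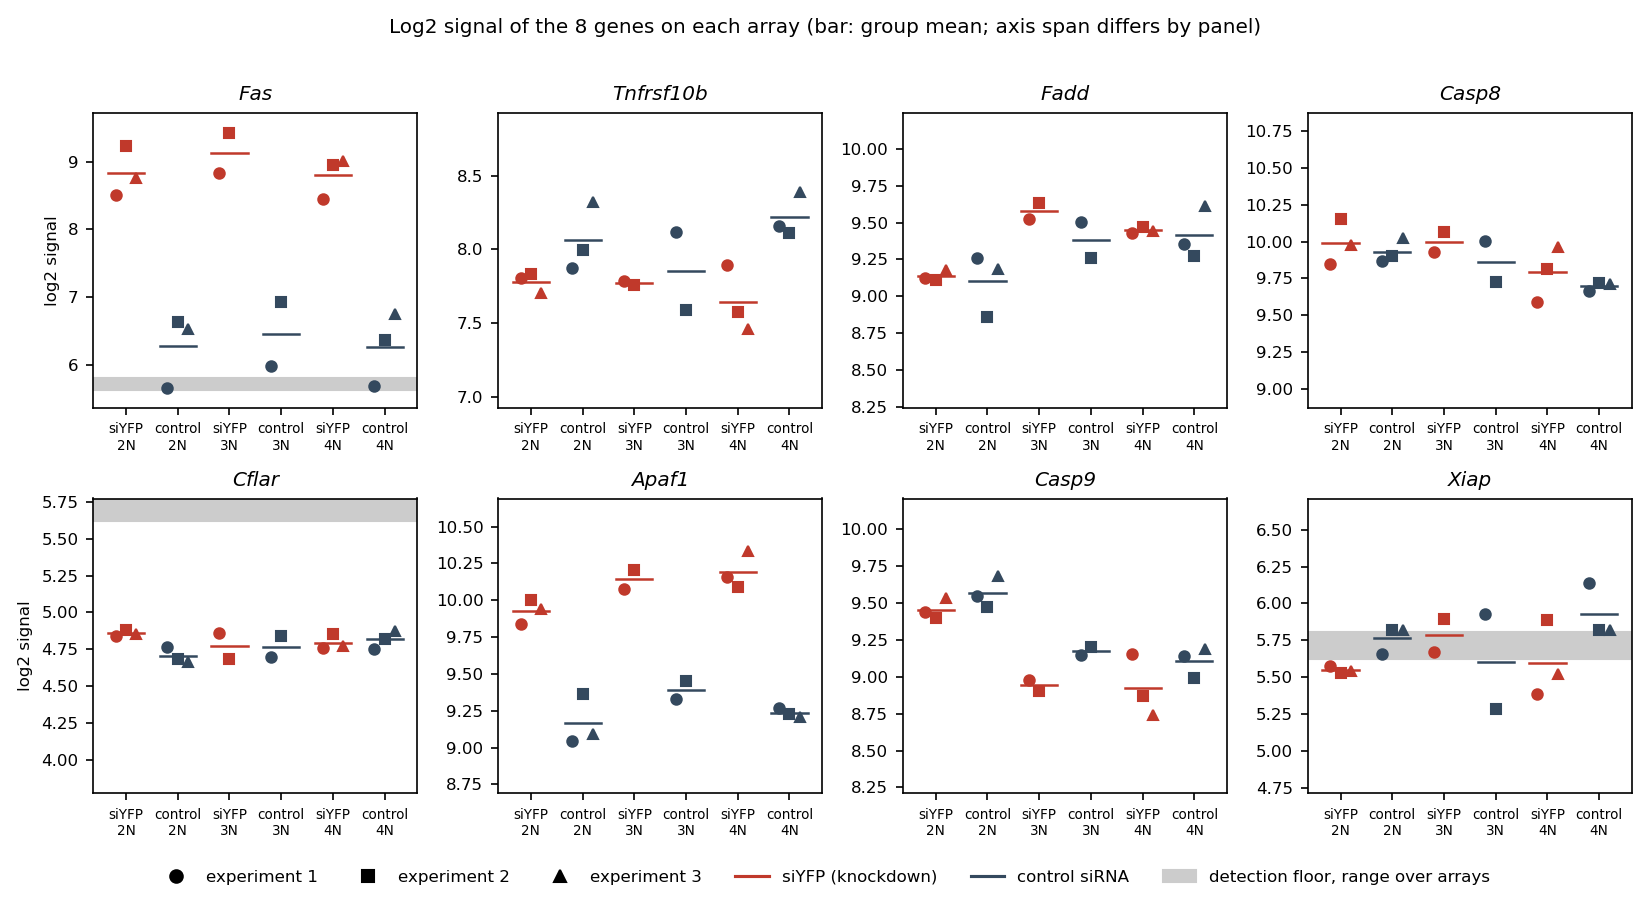
Log2 signal (vertical axis) of the probe that stands for each gene on each of the 16 arrays, by group (horizontal axis); symbols are experiments, bars are group means, and the grey band is the range of the detection floor over arrays (5.62 to 5.81). Fas and Apaf1 lay higher on every knockdown array than on any control array, Casp9 was highest in 2N cells, and Cflar, shown by its brighter probe, stayed below the band on every array.

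Fas, the receptor for Fas ligand, had the largest difference of the 7 tested members in each knockdown comparison. In 4N cells it read 8.44, 8.96 and 9.004 after knockdown, against 5.68, 6.37 and 6.75 in control cells (experiments 1, 2 and 3). In 2N cells it read 8.51, 9.23 and 8.76 after knockdown, against 5.66, 6.63 and 6.52 in control cells. In 3N cells it read 8.84 and 9.42 after knockdown, against 5.97 and 6.93 in control cells (experiments 1 and 2). The lowest knockdown array lay above the highest control array at each DNA content, and the control array of experiment 1 was the lowest of its group each time. The rise was 2.54 (SE 0.31, adjusted p = 0.000171) in 4N cells, 2.56 (SE 0.31, adjusted p = 0.000172) in 2N cells and 2.68 (SE 0.41, adjusted p = 0.000696) in 3N cells, or 5.81-fold, 5.90-fold and 6.41-fold. It was seen in 3 of 3, 3 of 3 and 2 of 2 experiments.

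The size of the Fas fold depends on how the dim control signal is treated, since Fas was detected on all 8 knockdown arrays but on 2 of 3 control arrays of 2N cells, 2 of 2 of 3N cells and 2 of 3 of 4N cells. Without background correction the rise was 1.62 in 4N, 1.64 in 2N and 1.80 in 3N cells, and it stayed past the threshold. A second Fas probe (ILMN_2479290) rose too, by 2.08 (SE 0.24, adjusted p = 0.000140) in 4N cells, by 2.32 (SE 0.24, adjusted p = 7.32e-05) in 2N cells and by 2.10 (SE 0.31, adjusted p = 0.000635) in 3N cells. The remaining Fas probe (ILMN_2454420) was detected on 1 array, 3N knockdown of experiment 2, and was not tested. In order of mean level Fas ran 9.13 in 3N, 8.83 in 2N and 8.80 in 4N knockdown cells, then 6.45 in 3N, 6.27 in 2N and 6.26 in 4N control cells. The only neighbours in that order whose arrays did not overlap were 4N knockdown and 3N control cells.

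Genes of the interferon response moved in the same comparisons. Of 17 tested, 15 were higher after knockdown in 4N cells, 14 in 2N cells and 13 in 3N cells, and none was lower. All genes called, in either direction, were 19.1%, 21.4% and 12.9%. Median log2 fold changes of the 17 were 1.31, 0.95 and 1.68, against -0.01 over all genes in each. The summed signal of the 23 genes with a probe was 12472.6 to 13035.5 in 4N knockdown cells and 6509 to 6811.7 in 4N control cells. In 2N cells the sum was 10968.2 to 11698.5 after knockdown and 6072 to 6738.1 in control cells, and in 3N cells it was 12003 to 12238.7 after knockdown and 5332.1 to 5573.7 in control cells. The groups did not overlap. Fas and Casp1 can respond to interferon in other cells, and the part of this response in the changes described here was not tested. Of 5 tested genes on the myogenic list, 1 was higher and 2 were lower after knockdown in 4N and in 2N cells. In 3N cells 0 were higher and 1 was lower. Foxo1, whose probe may read the siRNA target itself, was on this list and was 1 of those lower each time. The summed signal over the 9 with a probe, Foxo1 included, was 2586.6 to 2890.5 in 4N knockdown cells and 3594.8 to 4362.9 in 4N control cells. The part of these genes in the rise of Fas was not tested either.

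Apaf1, the scaffold of the apoptosome, rose less than Fas but with a narrower spread. In 4N cells it read 10.16, 10.09 and 10.33 after knockdown, against 9.27, 9.23 and 9.21 in control cells. In 2N cells it read 9.84, 10.00 and 9.94 after knockdown, against 9.05, 9.36 and 9.09 in control cells. In 3N cells it read 10.08 and 10.21 after knockdown, against 9.33 and 9.46 in control cells. No knockdown array overlapped any control array, and all arrays were well above detection. The rise was 0.96 (SE 0.11, adjusted p = 9.31e-05) in 4N cells, 0.76 (SE 0.11, adjusted p = 0.000476) in 2N cells and 0.75 (SE 0.13, adjusted p = 0.00139) in 3N cells, or 1.94-fold, 1.69-fold and 1.68-fold.

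The dimmer Apaf1 probe (ILMN_1228561), also detected on all 16 arrays, gave 0.53 (SE 0.23, adjusted p = 0.137) in 4N cells, 0.38 (SE 0.23, adjusted p = 0.271) in 2N cells and 0.51 (SE 0.27, adjusted p = 0.270) in 3N cells. It had the same sign as the brighter probe in all 3 and passed the threshold in none. The annotation ties the brighter probe (ILMN_3143577) to a different transcript record than the dimmer probe. Probe positions on the transcripts were not at hand.

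Tnfrsf10b, the TRAIL receptor, went the other way from Fas. In 4N cells it read 7.89, 7.58 and 7.46 after knockdown, against 8.16, 8.11 and 8.39 in control cells. All 3 knockdown arrays lay below all 3 control arrays, and its log2 signal fell by 0.58, with SE 0.14 and adjusted p = 0.0141. In 2N cells it read 7.80, 7.83 and 7.70 after knockdown, against 7.87, 7.99 and 8.32 in control cells, again without overlap, and the log2 fold change was -0.28 (SE 0.14, adjusted p = 0.189). In 3N cells it read 7.78 and 7.76 after knockdown, against 8.12 and 7.59 in control cells, so that the groups overlapped (log2 fold change -0.08, SE 0.19). The difference between the 4N and 2N effects was -0.30 (95% confidence interval -0.73 to 0.14, adjusted p = 1.00).

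The fall of Tnfrsf10b rests on 1 of its 5 probes. The other 3 detected probes gave log2 fold changes of 0.00 (ILMN_1230700), -0.01 (ILMN_2455181) and -0.18 (ILMN_2460875) in 4N cells, with standard errors of 0.21, 0.14 and 0.18. The fifth (ILMN_2454348) was detected on no array. With the mean of the 4 detected probes the change in 4N cells was -0.19 (adjusted p = 0.345). The adjusted p was also above 0.05 without the 4N knockdown array of experiment 2 (log2 fold change -0.54, adjusted p = 0.0523), without that of experiment 3 (-0.49, 0.0584) and without the 4N control array of experiment 3 (-0.49, 0.0602).

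**Figure D2:**
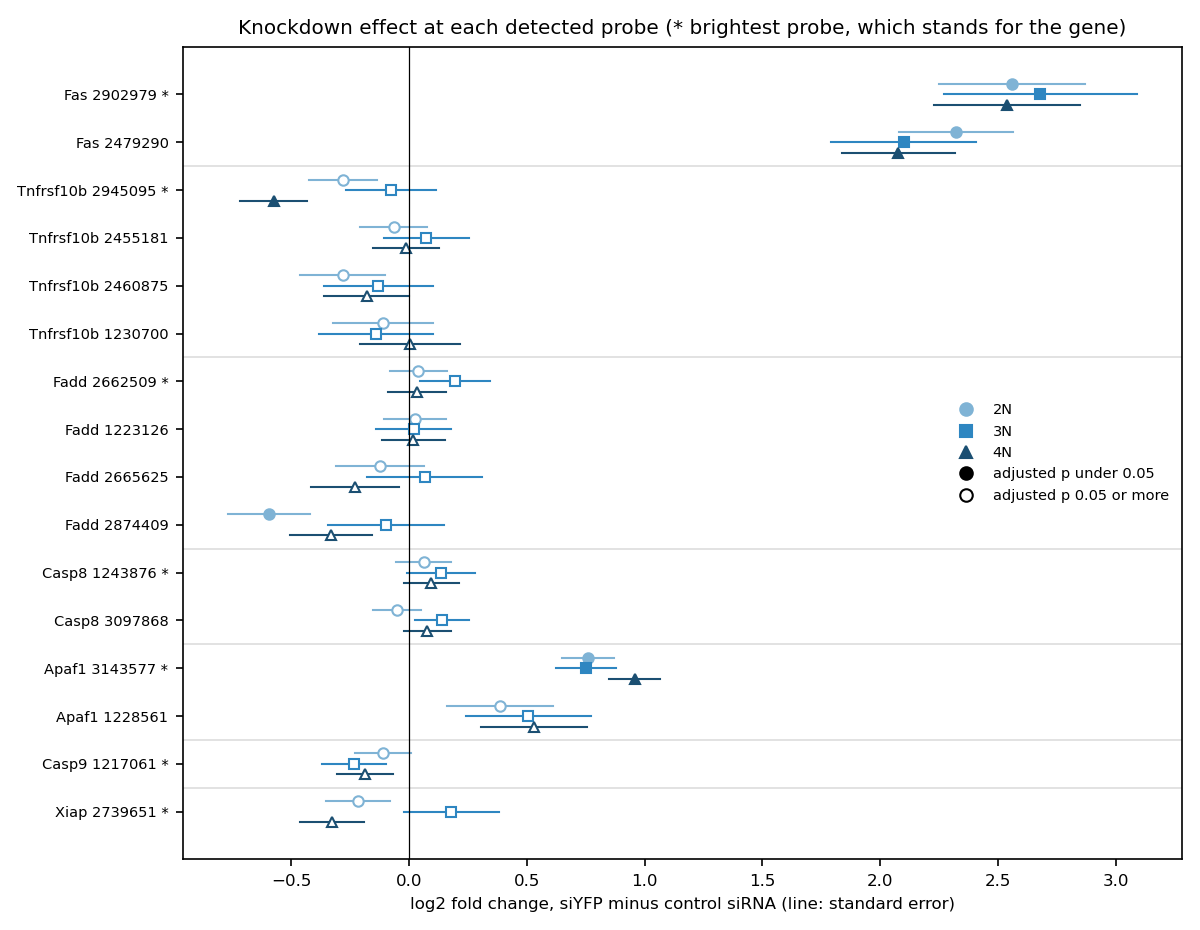
Log2 fold change, knockdown minus control (horizontal axis), at each of the 16 detected probes of the 7 tested genes (vertical axis, with the number of the probe); lines are standard errors, and filled symbols passed an adjusted p of 0.05 over all probes. Both Fas probes lay above 2 at every DNA content, whereas the brightest Tnfrsf10b probe parted from the other 3 in 4N cells.

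Fadd, the adaptor that joins the receptors to Casp8, differed little between knockdown and control. In 4N cells it read 9.43, 9.47 and 9.44 after knockdown, against 9.36, 9.27 and 9.61 in control cells, and the knockdown values lay inside the control range (log2 fold change 0.03, 95% confidence interval -0.23 to 0.29). The change was 0.04 (interval -0.22 to 0.30) in 2N cells and 0.20 (interval -0.12 to 0.51) in 3N cells. Of its 4 probes, all kept, the dimmest (ILMN_2874409) gave -0.59 in 2N cells (SE 0.17, adjusted p = 0.0323). That probe was detected on 0 of 3 knockdown and 1 of 3 control arrays of 2N cells, so this value lies near background and no fold is given.

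Casp8, the initiator caspase of the receptor route, was detected on all arrays by both of its probes. In 4N cells it read 9.59, 9.82 and 9.96 after knockdown, against 9.66, 9.72 and 9.71 in control cells, and the groups overlapped. In 2N cells it read 9.85, 10.15 and 9.98 after knockdown, against 9.87, 9.90 and 10.02 in control cells, and in 3N cells 9.93 and 10.07 after knockdown, against 10.001 and 9.73 in control cells, with overlap in both. The log2 fold changes were 0.09 (95% confidence interval -0.16 to 0.34) in 4N cells, 0.06 (-0.19 to 0.31) in 2N cells and 0.13 (-0.17 to 0.44) in 3N cells. The second probe (ILMN_3097868) gave 0.08, -0.05 and 0.14. Both probes of Cflar, the brake on Casp8, lay between 4.56 and 4.88 on every array and were detected on none, so Cflar had no fold change. A level below detection on this array does not show that the transcript is absent.

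Casp9, the caspase of the apoptosome, did not pass the threshold in any knockdown comparison. Its log2 fold changes were -0.19 (SE 0.12, adjusted p = 0.310) in 4N cells, -0.11 (SE 0.12, adjusted p = 0.560) in 2N cells and -0.23 (SE 0.13, adjusted p = 0.299) in 3N cells. Only 1 of its 3 probes was detected. Xiap, the inhibitor of Casp9, stayed near the detection floor, with 1 of 3 probes kept. It was detected on 0 of 3 knockdown and 2 of 3 control arrays of 2N cells, and on 1 of 3 and 3 of 3 arrays of 4N cells. In 4N cells it read 5.39, 5.89 and 5.52 after knockdown, against 6.14, 5.82 and 5.82 in control cells, with overlap (log2 fold change -0.33, SE 0.13, adjusted p = 0.115). Without the 4N knockdown array of experiment 2, the brightest of its group, the change was -0.47 (adjusted p = 0.0292). In 2N cells the change was -0.22 (adjusted p = 0.288), and no fold is given because no knockdown array and not every control array was detected. In 3N cells it read 5.67 and 5.90 after knockdown, against 5.93 and 5.28 in control cells, with no common direction over the experiments.

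**Figure D3:**
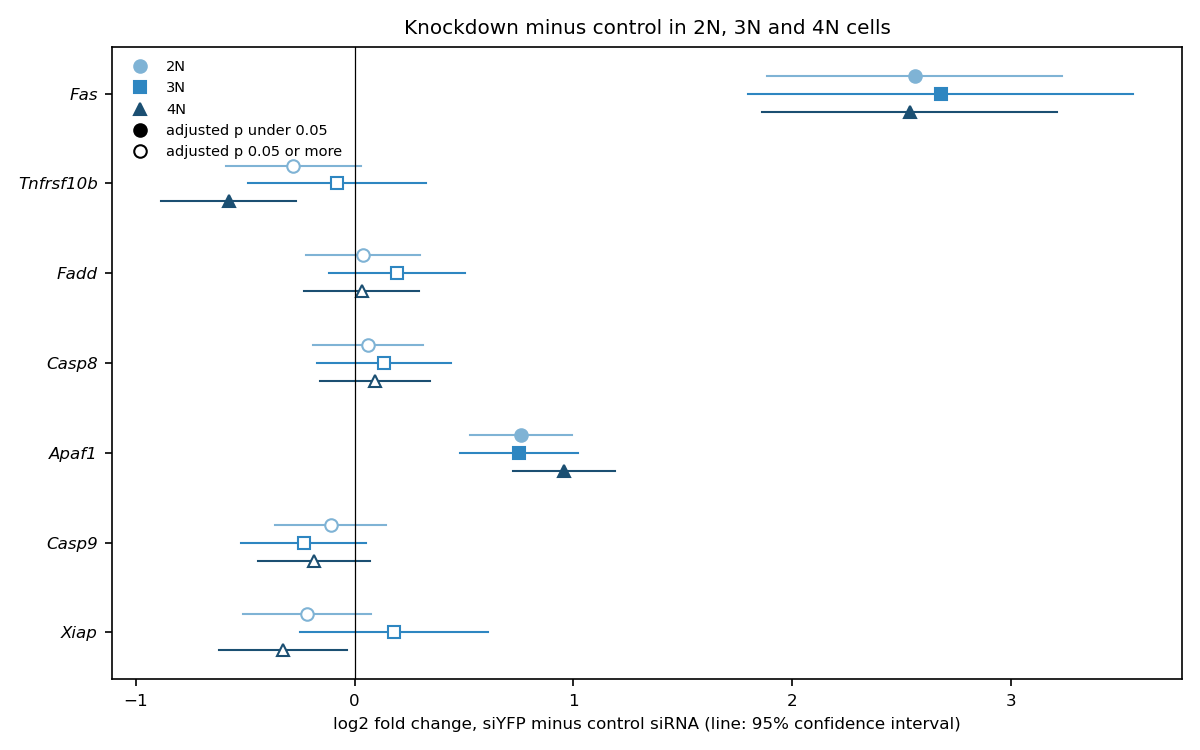
Log2 fold change, knockdown minus control (horizontal axis), of the 7 tested genes (vertical axis) in 2N, 3N and 4N cells; lines are 95% confidence intervals, and filled symbols passed an adjusted p of 0.05. Fas (2.54 to 2.68) and Apaf1 (0.75 to 0.96) were above 0 at all 3 DNA contents, and Tnfrsf10b was below 0 past the threshold in 4N cells only, with a difference between 4N and 2N cells that did not pass its own test.

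Whether knockdown acted differently by DNA content was tested directly for 2N and 4N cells. No member passed, and neither did any other gene by limma (0% of 9146 genes, lowest adjusted p 0.722, with 293 genes at an unadjusted p under 0.05). The difference of the effects, 4N minus 2N, was -0.02 for Fas (95% confidence interval -0.98 to 0.93) and 0.20 for Apaf1 (-0.13 to 0.53).

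The next comparisons asked whether the 8 genes followed DNA content within each siRNA. Casp9 fell in 4N against 2N cells with either siRNA. With the knockdown it read 9.16, 8.87 and 8.74 in 4N cells, against 9.44, 9.40 and 9.53 in 2N cells. With the control siRNA it read 9.14, 8.99 and 9.19 in 4N cells, against 9.55, 9.47 and 9.68 in 2N cells. No 4N array overlapped a 2N array. Its log2 signal fell by 0.53 (SE 0.12, adjusted p = 0.0204) in knockdown cells and by 0.46 (SE 0.12, adjusted p = 0.0463) in control cells, in 3 of 3 experiments each. Casp9 was the 1 member of 7 called in each, against 5.34% of 9146 genes in knockdown cells and 4.80% of 9146 genes in control cells.

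In 3N cells Casp9 read 8.98 and 8.90 after knockdown, against 9.44, 9.40 and 9.53 in 2N knockdown cells, and it fell by 0.51 (SE 0.12, adjusted p = 0.0211). It was again the 1 member of 7 called, against 6.10% of 9306 genes. In control cells it read 9.15 and 9.20 at 3N, below all 2N arrays, with a change of -0.39 (SE 0.12, adjusted p = 0.0912), and 0 of 7 members were called, against 4.81% of 9306 genes. Casp9 thus had its highest mean in 2N control (9.57) and 2N knockdown cells (9.46), which overlapped, followed by 3N control (9.17) and 4N control cells (9.11), which overlapped, and by 3N knockdown (8.94) and 4N knockdown cells (8.92), which overlapped too. Of the neighbours in this order, 2N knockdown and 3N control cells did not overlap, and neither did 4N control and 3N knockdown cells.

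The Casp9 calls lay close to the threshold. In control cells the adjusted p of the 4N comparison ran between 0.0268 and 0.145 with single arrays left out, and it stayed under 0.05 only without the 4N knockdown array of experiment 1 or 3. The change stayed between -0.51 and -0.40. In knockdown cells the 4N call was lost when the 2N array of experiment 1 or 3, or the 4N array of experiment 2 or 3, was left out (change -0.44 to -0.54, adjusted p 0.0587 to 0.0869). The 3N call was lost when either 3N knockdown array, or the 2N knockdown array of experiment 1 or 3, was left out (change -0.48 to -0.55, adjusted p 0.0565 to 0.187). Scaling each array to its median lost all 3 calls (adjusted p = 0.0866 for 4N knockdown, 0.0934 for 4N control and 0.0970 for 3N knockdown cells), and the 4N control call was also lost without the detection filter (0.0557). With the experiment as a block all 3 calls held, and the number of all genes called grew by over 1.5 times in each, to 423 higher and 349 lower in 4N control cells, in place of 271 and 168, and to 448 and 363 in 4N knockdown cells, in place of 323 and 165. For 3N cells the blocked counts were 446 higher and 342 lower with the control siRNA, in place of 304 and 144, and 500 and 521 with knockdown, in place of 351 and 217.

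Fadd lay higher in 3N and 4N than in 2N cells with either siRNA, without passing the threshold. With the knockdown it read 9.43, 9.47 and 9.44 in 4N cells and 9.52 and 9.63 in 3N cells, against 9.13, 9.11 and 9.18 in 2N cells. With the control siRNA it read 9.36, 9.27 and 9.61 in 4N cells and 9.50 and 9.26 in 3N cells, against 9.26, 8.86 and 9.19 in 2N cells. The 2N arrays were the lowest in each case, though narrowly in control cells. The changes were 0.31 (SE 0.12, adjusted p = 0.190) for 4N knockdown, 0.31 (SE 0.12, adjusted p = 0.180) for 4N control, 0.44 (SE 0.13, adjusted p = 0.0699) for 3N knockdown and 0.28 (SE 0.13, adjusted p = 0.297) for 3N control cells. With the experiment as a block the 3N knockdown change was 0.48 (adjusted p = 0.0249), and Fadd then passed. All 4 Fadd probes gave positive 3N changes in knockdown cells (0.38 to 0.45), and none passed alone. In 3N control cells the dimmest probe (ILMN_2874409), near background, gave -0.12, and the others gave 0.26 to 0.45.

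Casp8 had lower 4N than 2N means, with changes of -0.20 (SE 0.11, adjusted p = 0.395) in knockdown and -0.23 (SE 0.11, adjusted p = 0.312) in control cells, and 3N changes of 0.01 in knockdown and -0.07 in control cells. Its second probe (ILMN_3097868) gave 4N changes of 0.04 in knockdown and -0.09 in control cells, and 3N changes of 0.14 in knockdown and -0.05 in control cells. Apaf1 had 4N changes of 0.27 (SE 0.11, adjusted p = 0.202) in knockdown and 0.07 (SE 0.11, adjusted p = 0.811) in control cells. For Fas the 95% confidence interval of 4N minus 2N ran from -0.70 to 0.64 in knockdown and from -0.68 to 0.67 in control cells. None of the Tnfrsf10b and Xiap changes with DNA content passed the threshold. The brightest Tnfrsf10b probe gave 0.16 in 4N against 2N control cells, whereas ILMN_1230700, ILMN_2455181 and ILMN_2460875 gave -0.50, -0.39 and -0.30. In 3N control cells these dimmer probes gave -0.63, -0.51 and -0.25, and they were below 0 in knockdown cells too. None of them passed alone. ILMN_1230700 was detected on every 2N array and on no 3N array, at least 1.51-fold lower at 3N with the control siRNA and 1.46-fold with knockdown.

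**Figure D4:**
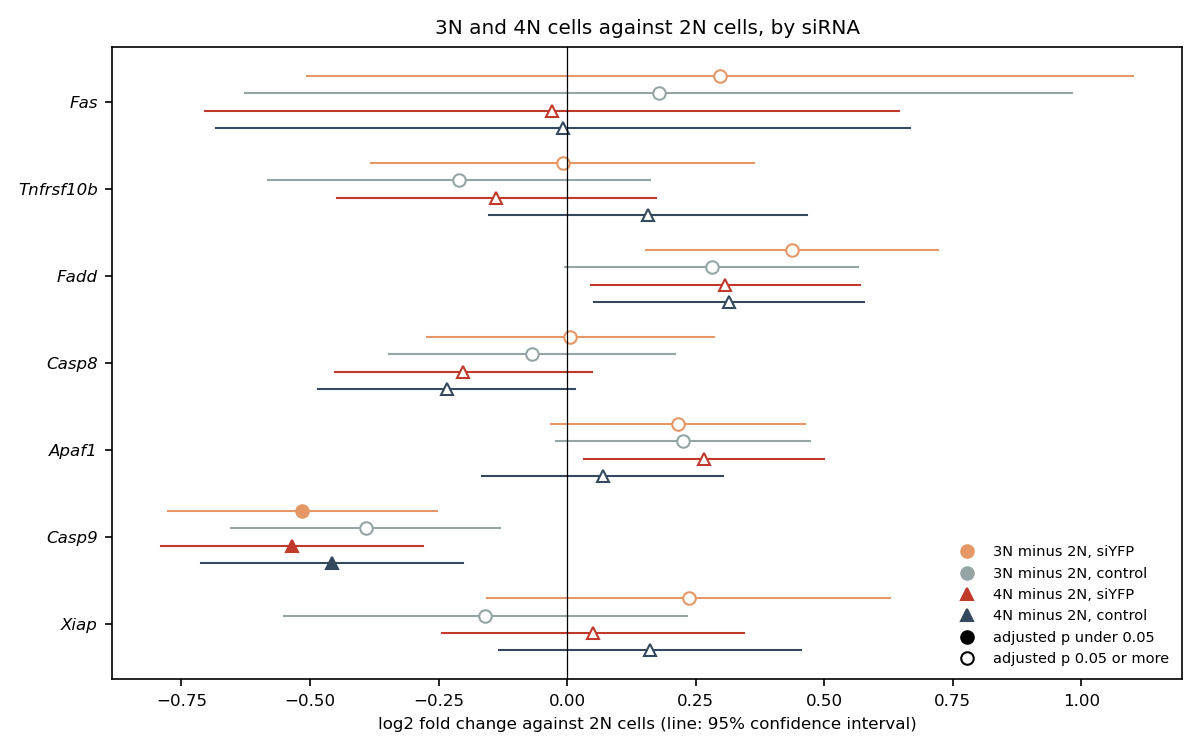
Log2 fold change of 3N and 4N against 2N cells (horizontal axis) for the 7 tested genes (vertical axis), by siRNA; lines are 95% confidence intervals, and filled symbols passed an adjusted p of 0.05. Casp9 lay below 0 in all 4 comparisons (-0.39 to -0.53) and passed in 3 of them, and Fadd lay above 0 in all 4 (0.28 to 0.44) without passing.

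Each detected probe was also tested alone for any difference among the 4 groups of 2N and 4N cells (limma moderated F test). Of the 16 member probes 6 passed, against 31.6% of 13615 probes. They were both Fas probes (adjusted p = 1.32e-05 and 3.28e-05), the brighter Apaf1 probe (adjusted p = 4.09e-05), the Casp9 probe (adjusted p = 0.00395), the dimmest Fadd probe (adjusted p = 0.0106) and the brightest Tnfrsf10b probe (adjusted p = 0.0268).

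Around the 8 genes, 54 others of the death pathways were followed, of which 47 have a probe and 30 were tested in 2N and 4N cells. In 4N cells 3 rose and 5 fell after knockdown, beside 19.1% of all genes called. In 2N cells 4 rose and 6 fell, beside 21.4%, and of 31 tested in 3N cells 2 rose and 5 fell, beside 12.9%. The median log2 fold changes were -0.02, -0.07 and 0.00, beside -0.01 over all genes in each. The genes that rose include Casp12 in 4N and 2N cells and Tnfrsf11b in 3N cells, which were detected on knockdown arrays only. The ligand genes Fasl and Tnfsf10 were not detected often enough to be tested.

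Among other caspases, Casp1, which processes interleukin-1 beta, rose by 1.23 in 4N cells (SE 0.15, adjusted p = 0.000144), by 0.97 in 2N cells (SE 0.15, adjusted p = 0.000673) and by 0.77 in 3N cells (SE 0.17, adjusted p = 0.00888). Its 4N arrays read 9.86 to 10.17 after knockdown, against 8.73 to 8.93 in control cells. Casp6, which cleaves lamin A in dying cells, fell by 0.72 in 4N cells (SE 0.13, adjusted p = 0.00270), by 0.72 in 2N cells (SE 0.13, adjusted p = 0.00238) and by 0.79 in 3N cells (SE 0.17, adjusted p = 0.00665). Its 4N arrays read 9.11 to 9.47 after knockdown, against 9.95 to 10.10 in control cells. Casp12, an inflammatory caspase by sequence, was detected on all 8 knockdown arrays and on no control array. Against the detection floor Casp12 was at least 1.31-fold higher after knockdown in 4N cells and at least 1.39-fold higher in 2N cells. It passed the threshold in 4N and 2N cells and not in 3N cells (adjusted p = 0.132). Since Casp12 entered the tests only through the knockdown arrays, where it was high, these calls are a description. The inflammatory Casp1 and the lamin protease Casp6 thus moved in opposite directions at each DNA content.

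Among receptors, Tnfrsf25, the death receptor DR3, fell by 1.00 in 4N cells (SE 0.22, adjusted p = 0.00749), by 0.72 in 2N cells (adjusted p = 0.0345) and by 1.12 in 3N cells (adjusted p = 0.0175). It was detected on 1 of 3 knockdown and 3 of 3 control arrays of 4N cells, and on 1 of 2 and 2 of 2 arrays of 3N cells, so the size of the fall is uncertain. Without background correction Tnfrsf25 fell by 0.45 in 4N cells, by 0.35 in 2N cells and by 0.49 in 3N cells, still past the threshold. Tnfrsf21, the death receptor DR6, fell by 0.80 in 4N cells (SE 0.16, adjusted p = 0.00480), by 0.66 in 2N cells (adjusted p = 0.0124) and by 0.68 in 3N cells (adjusted p = 0.0341). Tnfrsf11b, a soluble decoy receptor, passed in 3N cells, but it was detected on 1 of 2 knockdown and 0 of 2 control arrays there. No fold above 1 could be set against the floor. Tnfrsf11b also entered the test only through knockdown arrays, so its call is a description. Diablo, which leaves mitochondria to displace Xiap from caspases, fell by 0.64 in 4N cells (SE 0.08, adjusted p = 0.000264), by 0.42 in 2N cells (SE 0.08, adjusted p = 0.00360) and by 0.46 in 3N cells (SE 0.10, adjusted p = 0.00536). Its arrays read 9.77 to 9.82 after knockdown in 4N cells, against 10.37 to 10.48 in control cells. Htra2, a mitochondrial protease that also binds Xiap, fell by 0.55 in 2N cells (adjusted p = 0.0144). Its changes were -0.36 (adjusted p = 0.0944) in 4N and -0.22 (adjusted p = 0.536) in 3N cells.

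Birc2, an IAP family ubiquitin ligase, rose by 0.61 in 2N cells (adjusted p = 0.0114), with changes of 0.40 (adjusted p = 0.0835) in 4N and 0.16 (adjusted p = 0.638) in 3N cells. Faim, an inhibitor of Fas-induced death, rose by 0.44 in 4N cells (SE 0.11, adjusted p = 0.0132) and by 0.41 in 2N cells (SE 0.11, adjusted p = 0.0166). In 3N cells its change was 0.16 (adjusted p = 0.527). Scaling each array to its median instead gave 0.39 (adjusted p = 0.0503) in 4N and 0.27 (adjusted p = 0.150) in 2N cells for Faim. Lmna, the lamin A gene and a Casp6 substrate, fell by 0.43 in 4N cells (adjusted p = 0.0113), by 0.41 in 2N cells (adjusted p = 0.0144) and by 0.41 in 3N cells (adjusted p = 0.0442).

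With any single array left out, 7 of the 8 pathway calls in 4N cells, 5 of 10 in 2N cells and 0 of 7 in 3N cells held in every case. Under the other alternatives 7 of 8, 8 of 10 and 4 of 7 held in all. Those lost were Faim under median scaling, Tnfrsf25 in 2N cells without the detection filter (adjusted p = 0.0543), Tnfrsf21 in 3N cells with the mean of its probes (0.0687), Lmna in 3N cells without the filter (0.0525), and Tnfrsf11b in 3N cells without the filter (0.0509) and with an offset of 50 (0.0697). With arrays left out, Faim was lost in 4N cells without control array 1 (adjusted p = 0.0562). In 2N cells Tnfrsf21 was lost without knockdown array 2 (adjusted p = 0.0538), Lmna without knockdown array 1 (0.0606), Faim without control or knockdown array 2 (0.0538 and 0.0540) and Htra2 without control array 2 or knockdown array 3 (0.0505 and 0.0507). Tnfrsf25 was lost in 2N cells without control array 1 or 2 (0.115 and 0.113) or knockdown array 1 or 2 (0.101 and 0.123). In 3N cells Casp1 was lost without control or knockdown array 2 (0.0860 and 0.0648), Casp6 without knockdown array 2 (0.102), Diablo without knockdown array 1 (0.0502) and Tnfrsf25 without control or knockdown array 2 (0.142 and 0.176). Tnfrsf21 was lost there without control array 1 (0.214) or knockdown array 1 or 2 (0.0935 and 0.182), and Tnfrsf11b without control array 1 or 2 (0.0941 and 0.152) or knockdown array 2 (0.305). The Lmna call in 3N cells was lost with each of 11 arrays left out (adjusted p up to 0.257). None of these changes turned its direction. In 4N cells Birc2 passed without control array 2 of the 2N cells (0.40, adjusted p = 0.0253), with the mean of its probes (0.55, adjusted p = 0.0161), and without background correction or on the authors' processed values (0.36 and adjusted p = 0.0487 in both).

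**Figure D5:**
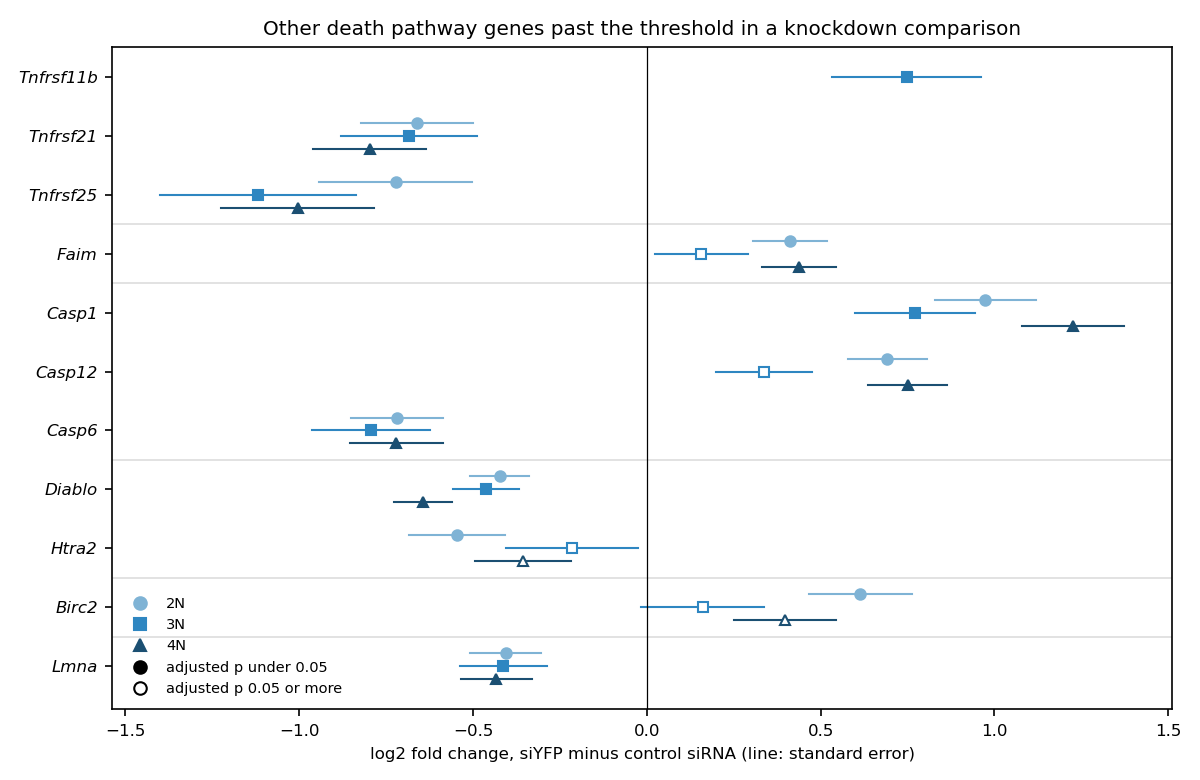
Log2 fold change, knockdown minus control (horizontal axis), of the 11 other death pathway genes that passed the threshold in at least 1 knockdown comparison (vertical axis, grouped by role); lines are standard errors and filled symbols passed an adjusted p of 0.05. Values of Casp12 and Tnfrsf11b rest on control signals below detection. Casp1 lay above 0 (0.77 to 1.23) and Casp6, Tnfrsf21, Tnfrsf25, Diablo and Lmna below 0 at all 3 DNA contents.

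The genes whose log2 signal ran closest to each called member over the 16 arrays are given as a description, since all points share the same split by siRNA and the same normalization. For Fas they were Itga11 (Pearson r = 0.994), Irak2 (r = 0.992) and Tagln (r = 0.986), which encode an integrin collagen receptor subunit, an interleukin-1 receptor kinase and a smooth muscle actin-binding protein. These rose after knockdown in 4N cells by 3.34, 1.24 and 2.07. For Apaf1 they were Nuak1 (r = 0.978), an AMPK-related kinase, Slc24a3 (r = 0.975), a sodium and calcium exchanger, and Apol10b (r = 0.973). Nuak1 and Slc24a3 rose by 1.93 and 0.99 in 4N cells, and Apol10b, detected on no control array, was at least 3.24-fold higher. For Tnfrsf10b they were Rala, Rsl24d1 and Ldah, at a lower r of 0.867, 0.848 and 0.826. For Casp9 they were Wbp1l (r = 0.907), Synrg (r = 0.887) and Dennd3 (r = 0.883). Synrg and Dennd3 also fell in 4N against 2N cells, by 0.76 (adjusted p = 0.00228) and 0.62 (adjusted p = 0.0303) with knockdown and by 0.48 (adjusted p = 0.0412) and 0.64 (adjusted p = 0.0256) with the control siRNA. Among the members themselves Fas and Apaf1 had r = 0.946, and Casp9 and Fadd had r = -0.70.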

How the data were processed

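Arrays were Illumina MouseRef-8 v2 BeadChips (1 colour), 1 per RNA sample. The authors deposited probe signals from GenomeStudio as a linear intensity before normalization, each with a detection value, deposited as a fraction that equals 1 minus the detection p. The authors' processed values, a second deposited intensity, equal quantile normalization of these signals to within 0.0358 on the log2 scale and served as an alternative. Signals were corrected with limma's normexp model from the detection values (offset 16; limma 3.58.1, R 4.3.3), log2 transformed and then quantile normalized across all 16. Probes detected (p under 0.05) on at least 3 arrays of a fit were kept, which left 13615 in the 12-array fit (2N and 4N), and the brightest stood for its gene (9146 genes; 9306 in the 16-array fit used for 3N contrasts). Each group had 1 mean, with moderated two-sided tests and Benjamini-Hochberg adjustment at 0.05 over all genes. Errors of differences are standard errors (SE).

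Of 25697 probes 23978 have 1 gene symbol, 0 several and 1719 none; probe positions were not at hand. Replicate arrays correlated at 0.988 to 0.994. Replicate numbers are the experiment numbers of the labels, so they pair the samples: deviations from group means correlated at a median of 0.252 over 18 same-number pairs (0.0227 to 0.464) and -0.141 over 36 others. Deviations within a group cancel out, so the second median largely follows from the first and is no separate sign of pairing. The labels do not say whether experiments were separate thaws or passages, so p-values measure the spread between these samples. Data were simulated with 200 changed genes and noise drawn independently for each array. For the 4N knockdown comparison (9146 genes), 35% of changes of 0.5 and 86% of changes of 1 (log2) were recovered. For the 3N comparison (9306 genes) it was 23% and 84%. More genes were called in the real data and its arrays are paired, so these rates hold for the simulated setting only.

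The members and the pathway and marker lists were chosen with earlier results of these data known. Named were all members and probes, listed pathway genes past the threshold in a knockdown contrast, and the 3 genes closest to each called member by Pearson correlation. Alternatives were the background correction, offset, scaling, filter, probe rule, experiment block, arrays fitted and each array left out. A bound set against the detection floor uses, on each dim array, the higher of the lowest detected signal and the probe's own.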

Additional observations from a re-analysis of the deposited data

How the results depend on the processing

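Fas and Apaf1 stayed past the threshold after knockdown at all 3 DNA contents under every alternative and with each array left out. The log2 rise of Fas was smallest without background correction (1.62 in 4N, 1.64 in 2N and 1.80 in 3N cells). Over all results with single arrays left out, 1217 were counted as unchanged, 55 lost a call, 3 gained one, 38 changed sign and 19 counts moved. Under the other alternatives the numbers were 811, 12, 7, 16 and 7. Unchanged meant the same direction and side of the threshold, but some counts that shifted a little were included. Members called after knockdown in 4N cells, 3 in the main fit, were put there at 2 as well. That count was 2 with the mean of a gene's probes, and without the 4N control or 4N knockdown array of experiment 3. The cause was not tested for any of these changes. Low signal over background limits the values of Xiap, the dim Fadd probe, Tnfrsf25, Tnfrsf11b, and the control values of Fas and Casp12, and each group had only 2 or 3 arrays.

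With the experiment number as a replicate block, the members called in 3N against 2N knockdown cells numbered 2 in place of 1, Fadd being added, and the Tnfrsf10b change there was 0.012. Of the 16 member probes 9 passed the F test under the block, in place of 6. The block changed no other member's call, and among the pathway genes Htra2 passed in 4N cells (adjusted p = 0.0130). All-gene counts under the block were 1147 higher and 1144 lower after knockdown in 4N cells and 1294 and 1257 in 2N cells.

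Scaling arrays to their median gave 0 members called in each 4N and 3N comparison with 2N cells, with Casp9 at -0.46 (adjusted p = 0.0866) for 4N knockdown, -0.46 (0.0934) for 4N control and -0.45 (0.0970) for 3N knockdown cells. It moved the median of all genes to -0.11 after knockdown in 2N cells, with 695 genes higher and 1296 lower in place of 1001 and 955. The split was 314 and 84 for 4N knockdown against 2N in place of 323 and 165 and 351 and 114 for 3N knockdown in place of 351 and 217. Its uncalled changes of sign were Fadd after knockdown at -0.015 (4N) and -0.095 (2N), Casp8 at -0.079 (2N), Fas at 0.034 in 4N against 2N knockdown cells and Tnfrsf10b at 0.023 in 3N against 2N knockdown cells. For the difference of knockdown effects they were Fas at 0.047, Fadd at 0.081 and Casp9 at 0.0013.

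With the mean of a gene's probes the uncalled changes of sign were Fadd after knockdown at -0.13 (4N) and -0.16 (2N), Fas at 0.15, Tnfrsf10b at -0.26 and Apaf1 at -0.0021 in 4N against 2N control cells, Fas at 0.014 in 4N against 2N knockdown cells, and Fadd at 0.036 for the difference of effects. Without the detection filter 0 members were called in 4N against 2N control cells (Casp9 adjusted p = 0.0557). Both on uncorrected signals and on the authors' processed values, 2 members were called in 3N against 2N knockdown cells, where Fadd then passed (0.38 in both, adjusted p = 0.0461 and 0.0462).

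With single arrays left out, the number of members called ran over 0 to 1 in 4N against 2N cells with either siRNA and over 0 to 2 in 3N against 2N knockdown cells. After knockdown in 4N cells it ran over 2 to 3. Without the 4N knockdown array of experiment 2 it stayed at 3, with Xiap (adjusted p = 0.0292) in place of Tnfrsf10b (0.0523). The following uncalled log2 changes crossed 0. After knockdown they were Fadd in 4N (-0.038 to 0.13) and 2N cells (-0.083 to 0.12), Casp8 in 2N (-0.020 to 0.13) and 3N cells (-0.0022 to 0.27), and in 3N cells Tnfrsf10b (-0.34 to 0.19), Xiap (-0.14 to 0.50), Faim (-0.0004 to 0.31) and Htra2 (-0.47 to 0.040). In 4N against 2N cells they were Fas in knockdown (-0.19 to 0.17) and control cells (-0.31 to 0.29) and Xiap in knockdown cells (-0.094 to 0.16). In 3N against 2N cells they were, with knockdown, Tnfrsf10b (-0.047 to 0.017) and Casp8 (-0.066 to 0.087) and, with the control siRNA, Fas (-0.30 to 0.65), Tnfrsf10b (-0.48 to 0.055), Casp8 (-0.20 to 0.069) and Xiap (-0.48 to 0.16). For the difference of knockdown effects they were Fas (-0.32 to 0.28), Fadd (-0.086 to 0.12), Casp8 (-0.054 to 0.13) and Casp9 (-0.19 to 0.014).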
